A study of Mus musculus with 2 samples.

Results

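Mir143, Mir145a and Mir145b are the mouse microRNA genes of the miR-143 and miR-145 names, which are known for their high expression in smooth muscle. The rule takes them by gene name, and they were proposed with earlier results of these data known. All 3 are among the 2202 microRNA genes counted, and 2 of the 3, Mir143 and Mir145a, reached 10 counts in each library, as did 278 genes in all. The samples were 2 small RNA libraries (under 30 nt, per the labels) from the gastrocnemius, the large calf muscle, of female B6CASTF1/J mice aged 2 months. These are hybrids of the C57BL/6J and CAST/EiJ strains, and no treatment is named in the labels. The libraries are labelled biological replicates 1 and 2 of a single group and come from females numbered separately under a shared donor code, so p-values between them measure the difference of these libraries and no condition.

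MicroRNAs are cut from hairpins in a longer primary transcript, and the short mature strand guides silencing complexes to messenger RNAs that pair with its seed. miR-143 and miR-145 are made from a common primary transcript in smooth muscle of vessels and viscera, where serum response factor and myocardin drive it. They favour the contractile state of these cells and repress factors such as KLF4 and ELK1. In skeletal muscle they are known mainly from the vessel wall, including pericytes, and not from the fibres.

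Replicate 1 lists 9410562 reads and replicate 2 lists 14377558. Own-strand counts of microRNA genes came to 1950204 and 2291821 of them. Reads aligned to several places made up 70.1% and 72.3%.

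Mir143 (ENSMUSG00000065445.3) occupies bases 61649196 to 61649258 of chromosome 18 in mm10, on the minus strand. Mir145a (ENSMUSG00000065592.2) occupies bases 61647825 to 61647894 of that strand. The 2 hairpins are thus 1301 bp apart, with Mir143 upstream. GENCODE M21 places both outside any other gene, and its model of Carmn, a long noncoding RNA of the cardiac and smooth muscle lineages, ends 366 bp upstream of Mir143. RefSeq draws Carmn longer, from 61645878 to 61665538 of the same strand in GRCm38.p6, and this span holds both hairpins. Bvht, a long noncoding RNA known from cardiac commitment, lies on the other strand and ends 352 bp from Mir145a. Mir145b (ENSMUSG00000098366.1, 69022199 to 69022273 on the minus strand) is 7.37 Mb away in no annotated gene, 70670 bp from the nearest one, 4930546C10Rik. By position it is no part of the cluster, although it carries the name.

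**Figure D1:**
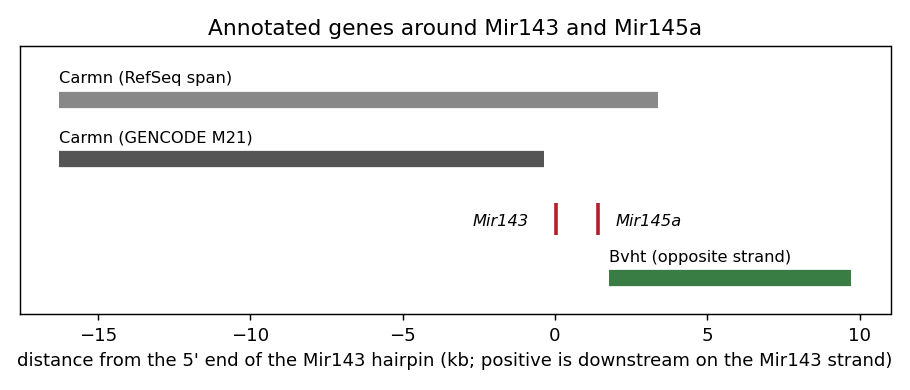
Annotated genes by distance in kb from the 5′ end of the Mir143 hairpin, where positive values are downstream on its strand. Bars are gene spans to scale and the 2 red ticks mark the hairpins, which are too short to draw to width; the RefSeq span of Carmn covers both ticks and the GENCODE span ends before them.

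The hairpins are 63 nt (Mir143), 70 nt (Mir145a) and 75 nt (Mir145b) long, with GC contents of 55.6%, 48.6% and 46.7% against a median of 50.8% over all microRNA genes. The longest stretch that Mir143 shares with any other microRNA gene, on either strand, is 11 nt. Mir145a and Mir145b share 17 nt, at positions 7 to 23 of the first hairpin and 17 to 33 of the second, while their whole hairpins are 54.9% identical when aligned. Mir143 and Mir145a share no more than 5 nt in a row. A read of the length of a mature microRNA can therefore be placed in Mir143 among the microRNA genes. A read that lies wholly inside the stretch shared by Mir145a and Mir145b would fit both, and reads aligned to several places are counted in no gene.

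Among reads assigned to a gene, Mir143 was the microRNA gene with the most counts over both libraries. It had 382581 counts in replicate 1 and 216280 in replicate 2, all on its own strand. On the CPM scale, counts per 1000000 own-strand counts of all microRNA genes, its levels were 196175 (exact Clopper-Pearson 95% interval 195618 to 196733) and 94370 (93992 to 94750). The mean level was 145273 ± 71987 CPM (SD, n = 2). It ranked 1 in replicate 1 and 3 in replicate 2, and replicate 1 was more than 2-fold above replicate 2. This ranking lacks reads that fit more than 1 gene copy, such as those shared by Mir1a-1 and Mir1a-2 or by Mir133a-1 and Mir133a-2. Whether a microRNA with such copies exceeds Mir143 in this muscle was not tested. The intervals given here take in counting error alone, because reads copied by PCR do not stand for separate molecules.

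Mir145a, the partner hairpin, was far lower than Mir143 and differed between the libraries in the same direction. It had 12494 counts in replicate 1 and 6792 in replicate 2, or 6407 CPM (6295 to 6519) and 2964 CPM (2894 to 3035). The mean was 4685 ± 2435 CPM (SD, n = 2). It ranked 23 in replicate 1 and 34 in replicate 2. Per nucleotide of hairpin, the mean level was 2306 ± 1143 CPM for Mir143 and 66.9 ± 34.8 CPM for Mir145a (SD, n = 2 each), which places them first and at rank 26 on that scale.

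Mir145b was at the edge of detection. Each library had 2 counts, or 1.03 CPM (0.124 to 3.70) in replicate 1 and 0.873 CPM (0.106 to 3.15) in replicate 2. Both values are below the 3 counts that a count of 0 allows, 1.54 and 1.31 CPM, so no ratio is given. No read was counted on the strand opposite to any of the 3 genes in either library, and own-strand and either-strand counts were identical.

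**Figure D2:**
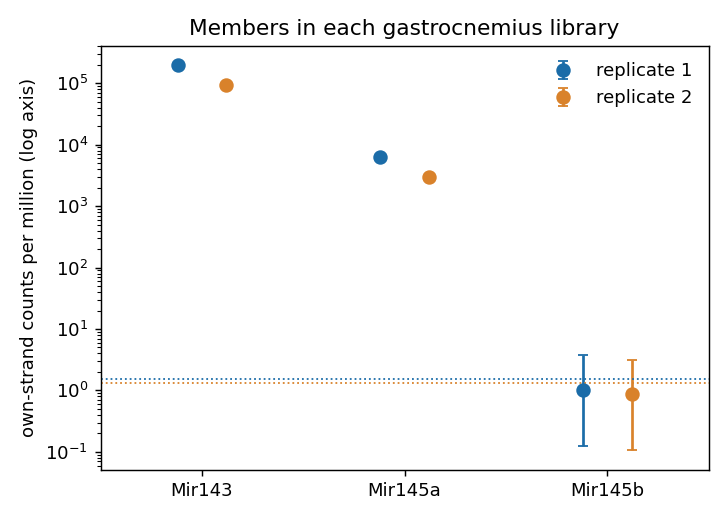
Own-strand CPM of the 3 genes in each library on a log axis; points are libraries, bars are exact 95% intervals of counting error and dotted lines mark 3 counts in each library. Replicate 1 is above replicate 2 for Mir143 and Mir145a, and Mir145b lies below the dotted lines at 1.03 and 0.873 CPM.

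Together the 3 genes took 20.3% of own-strand microRNA counts in the first library and 9.73% in the other. The mean share was 15.0% ± 7.44 (SD, n = 2). Mir143 supplied 96.8% and 97.0% of these counts. Because CPM is a share, this block also sets the scale for every other gene. With the 3 genes left out of the total, the CPM of every other gene is 1.25 times as high in replicate 1 and 1.11 times as high in replicate 2. As a share of all reads listed, which include unmapped reads and reads aligned to several places, the 3 genes held 4.20% and 1.55%. Because reads that fit more than 1 gene copy are missing from the own-strand totals, the shares of these totals may be too high.

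The place of Mir143 at the head of the order did not hold in both libraries. Next in mean level were Mir126a, the endothelial microRNA within Egfl7, with 120880 and 156853 CPM, and Mir378a, of the Ppargc1b gene of mitochondrial metabolism, with 91325 and 114094 CPM. Mir143 was above both in replicate 1 and below both in replicate 2, so their ranges overlap and the order of these 3 genes does not exceed the spread. Mir22, which is abundant in striated muscle, had 47359 and 70386 CPM and was below Mir143 in each library. For Mir145a, the 3 genes next above in mean level were Mir195a, Mirlet7f-2 and Mir151, and the 3 next below were Mir127, Mir140 and Mir149. Mir145a was above all 6 in replicate 1 and below all 6 in replicate 2.

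**Figure D3:**
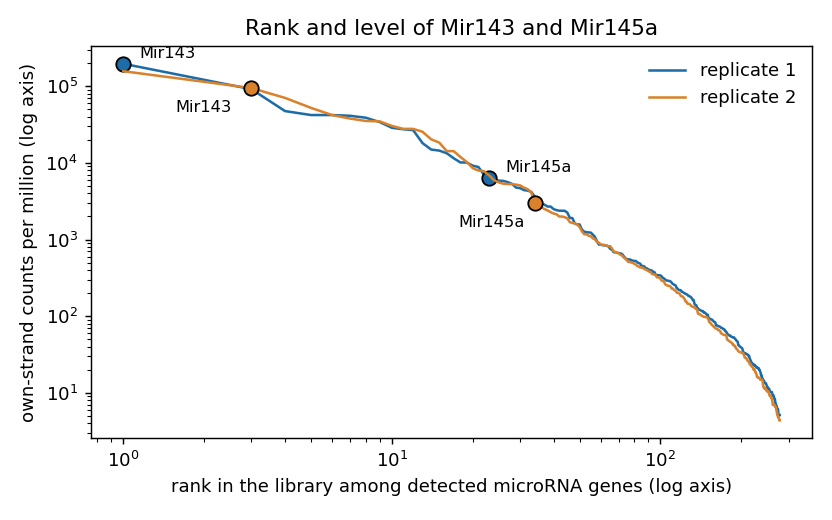
Own-strand CPM of the 278 detected genes against their rank in each library, both on log axes; lines are libraries and circles mark the named genes. Mir143 moves from rank 1 to 3 and Mir145a from rank 23 to 34 between replicate 1 and replicate 2.

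The 2 partners differed between the libraries by nearly the same factor. Mir143 was lower in replicate 2 by 2.03-fold, a log2 ratio of −1.02 (SE 0.0039, counting error), and Mir145a by 2.11-fold, a log2 ratio of −1.08 (SE 0.022). In the two-sided exact binomial test on TMM-scaled totals, with Benjamini-Hochberg adjustment and a minimum of 2-fold, both were called, with adjusted exact p-values too small to be represented. The same test called 33 of the 278 genes (11.9%), and 26 of them (9.35%) in the direction of Mir143 and Mir145a. The median log2 ratio over all 278 genes was −0.03, with quartiles of −0.45 and 0.30. Among the 58 genes with a mean of 1000 CPM or more, Mir145a and Mir143 came next above the lowest log2 ratio, that of Mir338, a microRNA of myelinating glia, at −1.81.

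These calls are against counting error alone, and the spread between animals cannot be told apart from the difference of 2 libraries. In the edgeR exact test with an assumed biological coefficient of variation of 0.2, which is not estimated from data, 18 genes (6.47%) were called as lower. Neither Mir143 (adjusted exact p = 0.141) nor Mir145a (adjusted exact p = 0.105) was among them. Mir143 also sits at the 2-fold minimum itself. With DESeq2 size factors its log2 ratio was −0.99 and it was not called.

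**Figure D4:**
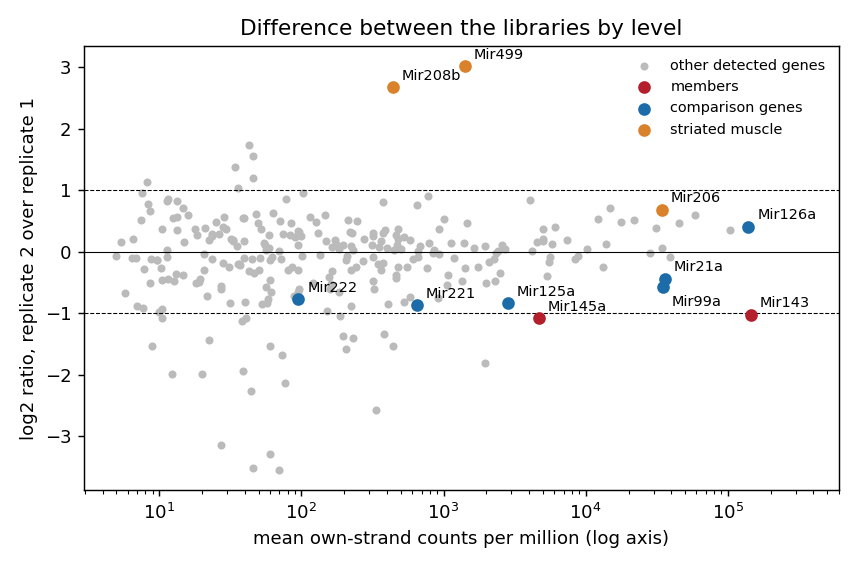
Log2 ratio of replicate 2 over replicate 1, on TMM-scaled totals, against mean CPM on a log axis, 1 point for each of 278 detected genes; dashed lines mark 2-fold. Mir143 (−1.02) and Mir145a (−1.08) lie just beyond the lower line at very different levels, and Mir126a and Mir206 lie above 0.

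The ratio of Mir143 to Mir145a needs no scaling and was nearly constant. Replicate 1 had a ratio of 30.6 (exact binomial 95% interval 30.1 to 31.2) and replicate 2 a ratio of 31.8 (31.1 to 32.6). The mean ratio was 31.2 ± 0.864 (SD, n = 2), or 34.7 per nucleotide of hairpin. The ratio was 3.99% higher in replicate 2. This exceeds counting error, with a two-sided Fisher's exact p of 0.0107 and a log2 difference of 0.06 (95% interval 0.01 to 0.10). The p-value is the largest of the 6 ratios compared, so Benjamini-Hochberg adjustment cannot change it and adds no support. The size of the difference is small beside the change of either gene.

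Ratios of Mir143 to the other abundant genes were not constant. Against Mir126a, the ratio was 1.62 in replicate 1 and 0.602 in replicate 2, so that the endothelial and smooth muscle microRNAs changed places. Against Mir378a, which lies on the same strand of the same chromosome, 249924 bp beyond Mir145a, it was 2.15 and 0.827. Against Mir206, a microRNA of skeletal muscle fibres, it was 7.35 and 2.25, and against Mir22 it was 4.14 and 1.34. Against Mir21a, known from fibroblasts and other stromal cells, it fell least, from 4.67 to 3.11. These 5 comparison genes were picked after their values were known, and their Fisher's exact p-values are too small to be represented. Fewer smooth muscle cells and less microRNA per cell cannot be told apart in RNA from whole muscle.

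How alike the partners were can be set beside other clusters, taken as runs of microRNA genes of the same strand with gaps of at most 10000 bp. There were 96 adjacent pairs of detected genes in 40 such clusters. Log2 ratios of the pairs differed by a median of 0.32, and those of Mir143 and Mir145a by 0.06, the eleventh smallest difference. Most pairs have few counts in the weaker gene, so 9 pairs with both genes at 1000 CPM or more make a closer comparison. Among them the difference for Mir143 and Mir145a was the second smallest, after Mir23a and Mir27a (0.03), and the widest was that of Mir127 and Mir434 (0.71). Of these 9 pairs, Mir143 and Mir145a were the pair farthest from equal levels, since Mir23a exceeded Mir27a by 17.5-fold. Over all 96 pairs, 13 were more unequal than Mir143 and Mir145a. These counts describe 2 libraries, and genes of 1 library are not independent replicates.

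**Figure D5:**
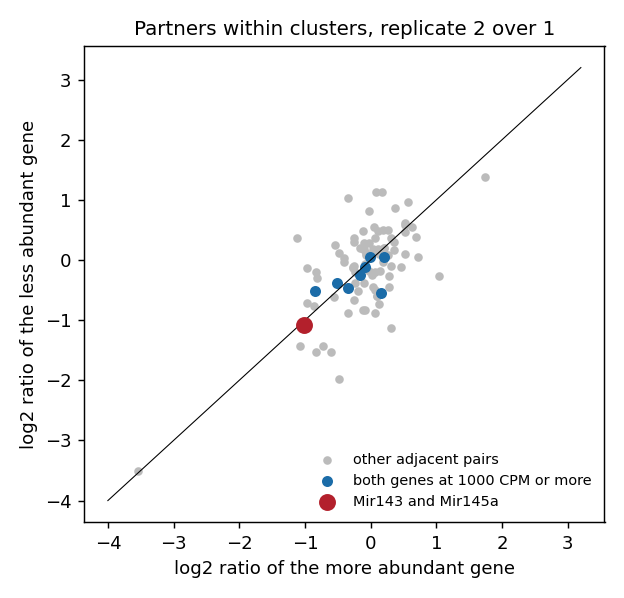
Log2 ratio of replicate 2 over replicate 1 for the more abundant gene (horizontal) and the less abundant gene (vertical) of 96 adjacent pairs within clusters; the line marks equal ratios. Mir143 and Mir145a lie within 0.06 of each other near the line, and the other 8 pairs with both genes at 1000 CPM or more lie above and to the right.

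Other microRNAs known from the vessel wall lay on both sides of 0. Of the 19 others in the list, which includes microRNAs of endothelium, fibroblasts and many other cells, 18 were detected, 11 were lower and 7 higher in replicate 2, and none was called by the exact binomial test with its 2-fold minimum. Without a fold minimum, 16 of the 18 had an adjusted exact p under 0.05, as did 154 (55.4%) of all 278 genes. Their median log2 ratio was −0.08, beside −0.03 for all genes, and their summed share was 31.9% and 32.9%. Within this sum, Mir126a alone held 12.1% and 15.7% of all own-strand microRNA counts, and it was higher in replicate 2. The next in mean level, Mir23a (log2 ratio −0.09), Mir21a (−0.44) and Mir99a (−0.56), were lower, so the sum does not show that its genes held steady. Mir221 and Mir222, which are known to promote growth of smooth muscle cells, came nearest to Mir143. Mir221 had 842 and 451 CPM (log2 ratio −0.87) and Mir222 had 121 and 69.4 CPM (−0.77). Mir24-1, at the other end, had 31.8 and 45.8 CPM (0.56). The list holds paired gene copies, Mir24-1 and Mir24-2, Mir26a-1 and Mir26a-2, and Mir125b-1 and Mir125b-2. Reads that fit both copies of a pair are counted in no gene, so the values of these genes may be too low. How far this affects the split, the median and the summed share was not tested.

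Among other genes of at least 1000 CPM, the 5 whose log2 ratio came nearest to that of Mir143, over 2 libraries only, were Mir125a (−0.84), Mir99a (−0.56), Mir434 (−0.54), Mirlet7e (−0.51) and Mir130a (−0.48). The nearest, Mir125a, had 3654 and 1994 CPM and still lay 0.18 from Mir143, against 0.06 for Mir145a. Without the 1000 CPM minimum, 6 other detected genes lay within 0.1 of Mir143 and 4 of them were nearer than Mir145a. The nearest was Mir193b, with 255 and 121 CPM (log2 ratio −1.04, SE 0.11). The others, Gm23935, Mir467e, Mir582, Mir669o and Mir200c, had means of 9.94 to 151 CPM and SEs of 0.12 to 0.46. Mir125a and Mirlet7e are neighbours in a cluster on chromosome 17.

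Mature strands of Mir126a, of Mir221 and Mir222, and of the 5 genes of at least 1000 CPM nearest to Mir143 are shown from RefSeq (GRCm38.p6), 5′ to 3′ with the seed, bases 2 to 8, in capitals, because they show which of these genes share a seed. For each gene 1 arm is printed. The files count reads by gene and do not say which arm was read.

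mmu-miR-126a-3p: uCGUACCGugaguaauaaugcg

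mmu-miR-221-3p: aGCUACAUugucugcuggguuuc

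mmu-miR-222-3p: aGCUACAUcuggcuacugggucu

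mmu-miR-125a-5p: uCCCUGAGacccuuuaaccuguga

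mmu-miR-99a-5p: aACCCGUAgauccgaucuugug

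mmu-miR-434-3p: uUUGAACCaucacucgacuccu

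mmu-let-7e-5p: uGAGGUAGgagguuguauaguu

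mmu-miR-130a-3p: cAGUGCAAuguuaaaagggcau

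Mir221 and Mir222 share their seed, and no other 2 of these 8 sequences do. In the whole RefSeq table, the printed seed occurs in 3 genes for Mir221 and Mir222, 6 for Mir125a, 3 for Mir99a, 13 for Mirlet7e and 7 for Mir130a, and in that gene alone for Mir126a and Mir434.

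Markers of other cell types also differed between the libraries. The endothelial list, Mir126a with Mir126b at 0 in both libraries, took 12.1% and 15.7% of counts. All 9 detected genes of the skeletal muscle list were higher in replicate 2, with a summed share of 2.79% and 4.65% and 2 called as higher, Mir499 and Mir208b, which are carried in myosin heavy chain genes. Mir206 and Mir486 were higher by 0.69 and 0.91 on the log2 scale and not called. Mir133b, Mir1a-1 and Mir133a-2 had adjusted exact binomial p of 0.33, 0.45 and 0.87. The fibroblast list took 4.35% and 3.18%, with 3 of 4 detected genes lower and Mir199b called, while Mir214 was at 0.14. The leukocyte list took 0.315% and 0.246%, and its 4 detected genes split. Mir155 (log2 ratio 0.14) and Mir150 (0.03), the most abundant, were not called, and Mir223 (−1.53) and Mir142 (−1.33) were called as lower. All these calls stand beside 26 of all 278 genes (9.35%) called as lower and 7 called as higher. Of the 278 genes, 136 had a log2 ratio above 0. The red cell list took 0.0787% and 0.0460%, with both genes lower and none called. Of the Schwann cell and nerve list, Mir338 alone was detected and was called as lower, with a share of 0.307% and 0.0855%. The other 6 genes of that list, 3 copies each of Mir9 and Mir124a, were listed at 0, but each shares a stretch of at least 26 nt with another copy. Reads from such a stretch are counted in no gene, so these zeros do not measure nerve. The same holds for the low values of Mir1a-1, Mir1a-2, Mir133a-1 and Mir133a-2, which share 28 to 31 nt with their copies, and the skeletal muscle share leaves such reads out. The epithelial list took 0.0338% and 0.0164%, with 2 of 7 genes detected. Both, Mir203 (log2 ratio −0.88) and Mir200c (−0.94), were lower and neither was called. The part of these cell types in the difference of Mir143 and Mir145a was not tested.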

How the data were processed

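Small RNA was sequenced from 2 libraries of 1 group. Each deposited table holds raw read counts of microRNA genes, for either strand, the gene's own strand and the opposite strand, on mm10 with GENCODE M21, per the notes deposited with each file. For the aligner and counter, nothing is given in the sources used here. Own-strand counts were used, over the sum of all gene rows. Rows that name no gene (unmapped, aligned to several places, outside genes, ambiguous) stayed out of library sizes, and hold 79.3% and 84.1% of the reads listed. With 1950204 and 2291821 counts, 1 count is 0.513 and 0.436 CPM.

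Genes with 10 counts in each library were tested with a two-sided conditional exact binomial test on TMM-scaled totals (edgeR 4.0.16), Benjamini-Hochberg adjustment over all 278 genes, a threshold of 0.05 and a 2-fold minimum. Log2 ratios use a prior of 0.5 counts. With a single group, no quasi-likelihood test was made. The test was checked on simulated Poisson counts, which hold counting error alone. That check therefore does not cover the spread between animals. Names and positions came from GENCODE M21, and all 2202 identifiers matched. Hairpin features came from its transcript sequences. R 4.3.3, DESeq2 1.42.0, Python 3.11.15, scipy 1.17.1 and Biopython 1.88 were used.

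Genes named in the text were the 3 members, the 3 detected genes above and below each in mean CPM, detected genes of the vessel wall list, at most 3 detected genes, the most abundant, from each other list, and the 5 genes of at least 1000 CPM with the nearest log2 ratio. Named outside this rule, after their values were seen, were Mir142, Mir146, Mir208b, members of cluster pairs, copies in the nerve and muscle lists, and genes near Mir143 under 1000 CPM. Members and lists were chosen with earlier results of these data known. Mir142a and Mir146a of the leukocyte list were not found by name. A gene named Mir146 was detected, with 525 and 284 CPM (log2 ratio −0.85), and was not counted in that list. Alternatives changed the strand, denominator, scaling, count minimum, fold minimum, dispersion and the libraries used.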

Additional observations from a re-analysis of the deposited data

Results flagged for a closer look

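Reads aligned to several places lie outside the gene counts used and made up 70.07% of the reads listed in replicate 1 and 72.33% in replicate 2. They are listed because they form a large signal that no gene value includes, and whether any belong to Mir145a or Mir145b was not tested.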

How the results depend on the processing

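The direction of Mir143 and Mir145a held under all 9 alternatives, with log2 ratios of −1.23 to −0.99 and −1.29 to −1.05. The lowest values came with the 3 genes left out of the totals, which moves the median of all genes to −0.24. All 9 use the same counts of these genes in the same 2 libraries, so they are no independent checks of the direction. A change of scaling shifts every gene alike, and a change of fold minimum or dispersion leaves the ratio practically as it was. The call was lost for Mir143 with DESeq2 size factors (−0.99), and for both genes in the edgeR exact test with an assumed or estimated coefficient of variation (−1.02 and −1.08 in each). The estimate, 0.352, comes from the differences of these same 2 libraries over all genes tested, so it is no independent measure of the spread between animals. Under it 7 of the 278 genes were still called. Mir143 and Mir145a were not among them, with unadjusted edgeR exact p of 0.166 and 0.144. Genes called as higher and lower numbered 3 and 15 with a minimum of 50 counts, 69 and 85 without a fold minimum, 4 and 18 with the assumed and 2 and 5 with the estimated coefficient. Over all reads listed, the 3 genes held 2.87%, Mir143 27849, Mir145a 900.0 and Mir145b 0.176 CPM. On either-strand totals, with the counts of the 3 genes unchanged, their mean share was 20.2%, Mir143 was at 196032 CPM and Mir145a at 6318 CPM. These values are higher only because the either-strand total of the other genes is smaller, and 254 genes reached the count minimum there. Why that total is smaller was not tested. Mir145b was 1.30 CPM on either-strand totals and 1.13 CPM with the 3 genes left out of the total, both from 2 counts in each library. Leaving out each library gave shares of 9.73% to 20.3% and Mir143 to Mir145a ratios of 30.6 to 31.8. No library can be left out of a difference between 2 libraries. Depth limits Mir145b, at 2 counts a library. No paired analysis was possible because there is a single group.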
